A study of Mus musculus with 8 samples.

Results

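The genes described here are 10 regulators of the BCL2 family: Bcl2, Bcl2l1, Mcl1, Bax, Bak1, Bcl2l11, Bbc3, Pmaip1, Bid and Bmf. They were taken by gene symbol from a table of read counts over 55471 mouse genes, in which each of these symbols occurred once. SV-LECs, a mouse lymphatic endothelial cell line derived from mesenteric adventitial tissue and immortalized with SV40, were either left untreated (4 libraries) or given TGFβ1 at 10 ng/ml during 72 h (4 libraries). Both groups therefore came from 1 line carrying SV40, a virus whose large T antigen is known to bind p53, and they shared the same culture medium. The samples of a group are technical replicates according to the study's methods, so every SD, standard error and p-value given here measures the spread between such libraries and not between independent experiments. The study used the line to learn which secreted factors TGFβ1 induces in lymphatic endothelial cells, and the BCL2 family genes are a further readout of the same comparison.

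BCL2 family proteins decide whether the outer mitochondrial membrane is opened during apoptosis. The guardians BCL2, BCL-xL (the main product of Bcl2l1) and MCL1 hold the effectors BAX and BAK in check, while the BH3-only proteins BIM (Bcl2l11), PUMA (Bbc3), NOXA (Pmaip1), BID and BMF bind the guardians or activate the effectors directly. Once BAX or BAK forms pores, cytochrome c leaves the mitochondria, binds APAF1 and starts the caspase cascade. TGFβ is known to change the balance of these proteins in several cell types, often through BIM and BMF.

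In TGFβ1-treated SV-LECs 7 of the 10 genes were higher, 2 were lower and 1 did not pass the test. Bid and Bcl2 rose about as far as each other, by 2.10-fold and 2.06-fold, followed by Pmaip1 (1.82-fold) and Bcl2l1 (1.61-fold). Bax, Mcl1 and Bcl2l11 rose by 1.39-fold, 1.37-fold and 1.22-fold. Bmf fell 4.42-fold and Bak1 fell 1.18-fold. Each of the 3 roles held genes that rose, and the 2 genes that fell were an effector and a BH3-only gene.

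These calls come from edgeR's likelihood ratio test over all 13818 genes that passed a filter on low counts. A gene was called at an estimated false discovery rate (FDR, Benjamini and Hochberg) under 0.05. All 10 genes passed that filter. The treatment changed much of the transcriptome: 75.6% of the tested genes were called, 37.6% higher and 38.0% lower, so that a call alone says little about a gene. In 9 of the 10 genes the libraries of one group lay entirely above those of the other, against 69.8% of all genes tested, 34.7% with the TGFβ1 libraries above and 35.1% with them below. The median log2 fold change of the 10 genes was 0.47, beside -0.01 over all genes, and the median size of the change without its sign was 0.58, beside 0.39. When a gene was asked to change by more than 0.5 on the log2 scale (edgeR's glmTreat), 30.0% of all genes passed, 16.9% higher and 13.1% lower, and 5 of the 10 did: Bcl2, Bcl2l1, Pmaip1 and Bid higher and Bmf lower.

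**Figure D1:**
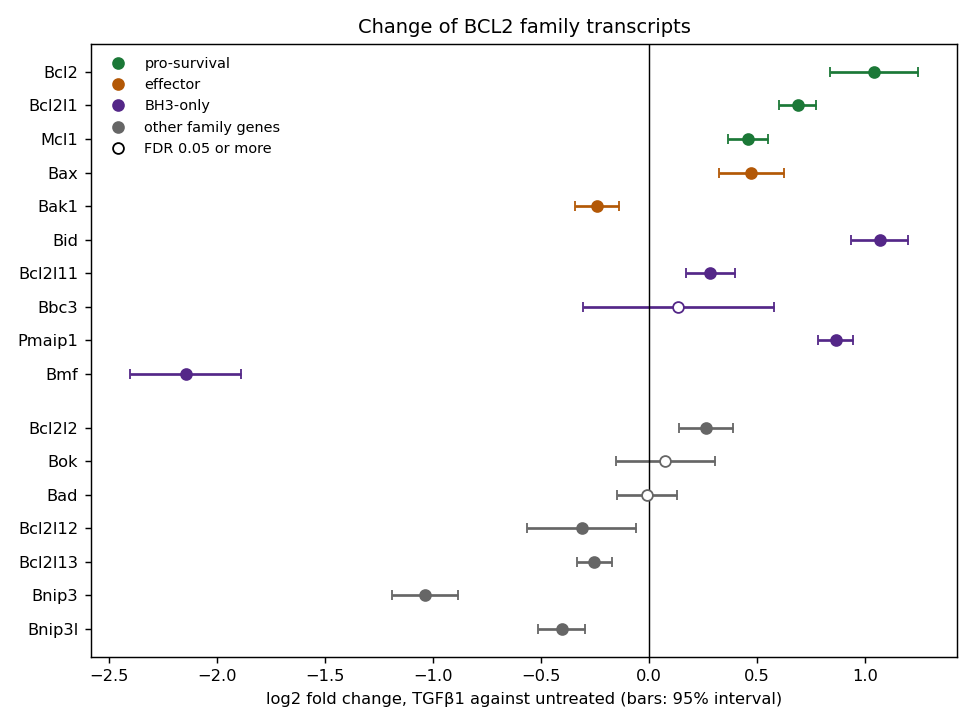
Log2 fold change of each BCL2 family gene in TGFβ1-treated against untreated SV-LECs on the horizontal axis, with its 95% interval, the 10 genes coloured and ordered by role (guardians are marked pro-survival) above 7 other tested genes of the family in grey; open points had an FDR of 0.05 or more. Bid (1.07) and Bcl2 (1.04) lie farthest to the right and Bmf (-2.14) farthest to the left, and the interval of Bbc3 is the widest and spans 0.

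Total counts per library were between 18952504 and 26386941. Values are given as CPM, the counts per 1000000 of the library size normalized by the TMM method, and 3 counts in a library, the level taken as the floor, corresponded to 0.113 to 0.162 CPM, which covers counting error only. The lowest value among the 10 genes in any library, 3.15 CPM for Bmf, was above that floor. The defining markers of the labelled cell type were partly absent: Prox1, Lyve1, Pecam1 and Cdh5 had at most 5 counts in any library. Pdpn (342 ± 19.5 and 313 ± 5.25 CPM in untreated and treated libraries) and Flt4 (21.6 ± 1.23 and 29.3 ± 0.407 CPM) were expressed. Of 10 endothelial and lymphatic markers 4 passed the filter, 2 of them higher and 1 lower, and their summed level was 357 to 394 CPM in untreated and 360 to 370 CPM in treated libraries. Of 6 fibroblast and mural markers all passed, 3 higher and 2 lower, with a summed level of 8031 to 10375 CPM in untreated and 10464 to 11893 CPM in treated libraries, mostly Col1a1 and Col1a2. Of 6 leukocyte markers 1 passed, and it was higher; their summed level was 0.193 to 0.437 CPM and 1.08 to 1.84 CPM. Of 5 epithelial markers 3 passed, 2 of them higher and 1 lower, at 5.53 to 9.35 CPM and 8.03 to 10.0 CPM. The part of these lists in the results was not tested, and fewer cells of a type and less RNA per cell cannot be told apart in RNA from whole cultures.

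Among the guardians, Bcl2 changed by the largest factor and had the lowest level. Bcl2 (ENSMUSG00000057329, chromosome 1 of GRCm38 from 106538178 to 106714274, minus strand), the founding member of the family, was at 5.01, 5.18, 4.67 and 5.48 CPM in the untreated libraries 1 to 4 and at 10.8, 11.3, 10.1 and 9.86 CPM in the treated libraries 1 to 4. All treated libraries lay far above all untreated ones, and the spread within each group was small. The mean was 5.09 ± 0.336 CPM without and 10.5 ± 0.654 CPM with TGFβ1 (SD over the 4 libraries of a group), a log2 fold change of 1.04 (SE 0.103, FDR = 7.66e-24, edgeR). That change was larger than the changes of 89.7% of all tested genes when these are ordered from the most lowered to the most raised. The values rest on 104 to 138 counts in the untreated and 199 to 254 counts in the treated libraries, the fewest of the guardians.

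Bcl2l1 (ENSMUSG00000007659, chromosome 2, 152780668 to 152831728, minus strand) was at 101, 102, 106 and 112 CPM without and at 166, 170, 173 and 169 CPM with TGFβ1. The groups were separated by a gap of over 50 CPM. The log2 fold change was 0.69 (SE 0.0437, FDR = 1.24e-54, edgeR), with a mean of 105 ± 4.86 CPM before and 170 ± 2.65 CPM after treatment (SD, n = 4). The annotation lists 9 transcripts of Bcl2l1, 8 of them coding, and counts per gene do not tell the transcripts for long, protective BCL-xL from those for the short, death-promoting form.

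Mcl1 (ENSMUSG00000038612, chromosome 3, 95658788 to 95663176, plus strand), which encodes a short-lived guardian, was at 134, 130, 137 and 146 CPM in untreated and at 177, 193, 192 and 189 CPM in treated libraries. The groups did not overlap, and the treated library 1 was the lowest of its group. The mean rose from 137 ± 6.66 to 188 ± 7.18 CPM (SD, n = 4; log2 fold change 0.46, SE 0.0472, FDR = 1.61e-21, edgeR). The 3 guardians thus rose together but by different factors, and Mcl1 did not pass when a change above 0.5 on the log2 scale was required (adjusted p = 1, edgeR's glmTreat).

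**Figure D2:**
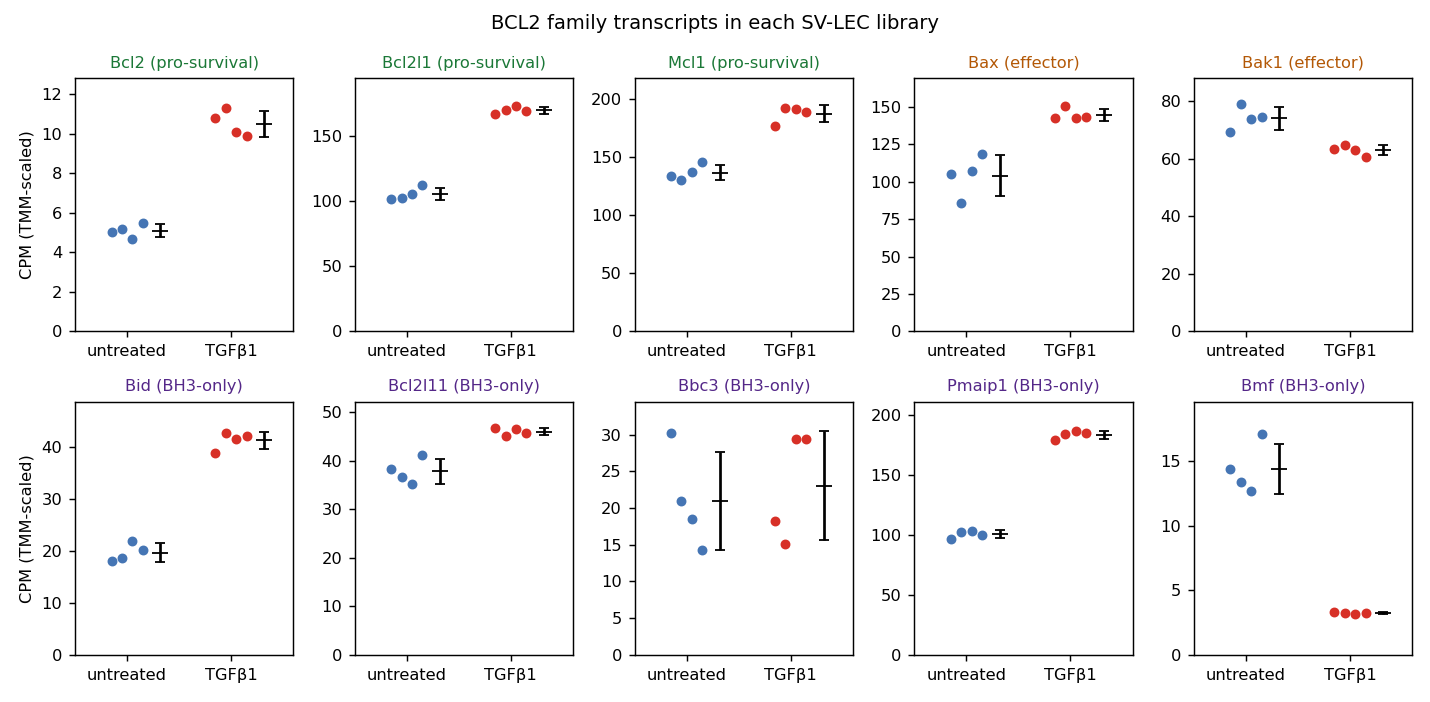
CPM (TMM-normalized) of the 10 BCL2 family genes in each of the 4 untreated and 4 TGFβ1-treated libraries, each gene in a panel with an axis of its own that starts at 0; points are libraries, in the order 1 to 4, and lines with bars the mean ± SD (guardians are marked pro-survival). The groups are apart in every panel but that of Bbc3, where both run from about 15 to 30 CPM.

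The effectors Bax and Bak1 changed in opposite directions. Bax (ENSMUSG00000003873, chromosome 7, 45461697 to 45466898, minus strand), which encodes a cytosolic protein that moves to the mitochondria on activation, was at 105, 85.8, 107 and 119 CPM in untreated libraries and at 142, 151, 143 and 143 CPM in treated ones. The untreated libraries were spread widely, while 3 of the 4 treated libraries lay within 1 CPM of each other. The mean rose from 104 ± 13.6 to 145 ± 3.95 CPM (SD, n = 4; log2 fold change 0.47, SE 0.0761, FDR = 1.19e-09, edgeR). Of the read-length stretches of 75 bases in Bax transcripts, 6.84% also occur in Gm45808 on the same strand, so that the counting step could have left such reads uncounted.

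Bak1 (ENSMUSG00000057789, chromosome 17, 27019810 to 27029009, minus strand), whose protein resides in the outer mitochondrial membrane, was at 69.4, 79.1, 73.7 and 74.4 CPM without and at 63.5, 64.7, 63.1 and 60.5 CPM with TGFβ1. Every treated library was below every untreated one, although the closest libraries differed by under 5 CPM. The mean fell from 74.1 ± 3.94 to 63.0 ± 1.77 CPM (SD, n = 4), a log2 fold change of -0.24 with a 95% interval from -0.34 to -0.14 (FDR = 8.43e-06, edgeR). It was the smallest change among the 9 genes called. Exons of the opposite strand, from genes named Ggnbp1, share 12.8% of the read-length stretches of Bak1, and those genes had a mean of at most 1.17 CPM in either group.

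The BH3-only genes changed in both directions and over the widest range, from a 4.42-fold fall of Bmf to a 2.10-fold rise of Bid. Bid (ENSMUSG00000004446, chromosome 6, 120891930 to 120916853, minus strand) encodes the protein that caspase-8 cleaves and that connects death receptors with the mitochondria. It was at 18.0, 18.7, 22.0 and 20.2 CPM in untreated and at 38.9, 42.7, 41.5 and 42.2 CPM in treated libraries. No treated library came near the untreated ones. The mean rose from 19.7 ± 1.76 to 41.3 ± 1.68 CPM (SD, n = 4; log2 fold change 1.07, SE 0.0673, FDR = 3.77e-56, edgeR). The 3′ part of Bid overlaps Bcl2l13 on the opposite strand by 628 exonic bases, which hold 15.7% of the read-length stretches of Bid. Bcl2l13 fell from 126 ± 0.989 to 106 ± 3.11 CPM (SD, n = 4), the direction opposite to that of Bid, and whether strand was used in counting is not given in the sources used here.

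Pmaip1 (ENSMUSG00000024521, chromosome 18, 66458533 to 66465565, plus strand) encodes NOXA, which binds MCL1 and is a known p53 target. Its values were 96.6, 103, 104 and 100 CPM without and 179, 184, 187 and 185 CPM with TGFβ1. The libraries of each group were close together. The log2 fold change of 0.87 had the smallest FDR of the family (SE 0.0410, FDR = 4.41e-97, edgeR), with means of 101 ± 3.11 and 184 ± 3.34 CPM (SD, n = 4).

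Bcl2l11 (ENSMUSG00000027381, chromosome 2, 128126038 to 128162547, plus strand), the gene of BIM, was at 38.3, 36.5, 35.2 and 41.2 CPM in untreated and at 46.6, 45.1, 46.6 and 45.6 CPM in treated libraries. The rise was modest but left no overlap between the groups. The mean went from 37.8 ± 2.62 to 46.0 ± 0.756 CPM (SD, n = 4; log2 fold change 0.29, 95% interval 0.17 to 0.40, FDR = 1.23e-06, edgeR). Counts per gene do not separate the BIM isoforms, and 8 transcripts are annotated.

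Bmf (ENSMUSG00000040093, chromosome 2, 118528757 to 118549687, minus strand), whose protein is held at the actin and myosin cytoskeleton in attached cells, was at 14.4, 13.4, 12.7 and 17.1 CPM without and at 3.35, 3.21, 3.15 and 3.26 CPM with TGFβ1. The treated libraries were nearly identical, and each lay far below every untreated one. The mean fell from 14.4 ± 1.92 to 3.24 ± 0.0862 CPM (SD, n = 4; log2 fold change -2.14, SE 0.130, FDR = 9.36e-64, edgeR). Among all 13818 tested genes the log2 fold change of Bmf was at percentile 1.22, and it was the largest change of the family in either direction. Bmf and Bcl2l11 encode BH3-only proteins that associate with dynein light chains, and their RNAs changed in opposite directions.

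Bbc3 (ENSMUSG00000002083, chromosome 7, 16308393 to 16318205, plus strand), the gene of PUMA and a known p53 target, was the only one of the 10 that did not pass the test. It was at 30.2, 20.9, 18.5 and 14.4 CPM in untreated and at 18.3, 15.1, 29.4 and 29.4 CPM in treated libraries. Values near 15 and near 30 CPM occurred in both groups. The means were 21.0 ± 6.70 and 23.1 ± 7.44 CPM (SD, n = 4), and the log2 fold change of 0.14 had a 95% interval from -0.30 to 0.58 (FDR = 0.584, edgeR). A 2-sided exact permutation test over the 8 libraries gave p = 0.743, and the other 9 genes gave p = 0.0286 each, the smallest value that 4 against 4 libraries allow. The interval leaves room for a rise as large as that of Bax or Mcl1, so the data do not show that Bbc3 stayed the same.

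The spread of Bbc3 was unusual among all genes. Its biological coefficient of variation, edgeR's measure of the relative spread beyond counting error, was 0.215, higher than in 99.5% of the tested genes, whose median was 0.0514. The longest annotated transcript of Bbc3 is 65.2% G and C, a higher content than in the longest transcripts of 99.7% of the tested genes. When the log2 CPM of each gene in a library, centred on its group, was fitted against GC content, the slope per 10 points of GC was 0.0572, 0.00577, -0.0131 and -0.0498 in the untreated libraries 1 to 4 and -0.0231, -0.0399, 0.0245 and 0.0386 in the treated libraries 1 to 4. In the untreated group the order of Bbc3 over the libraries was the order of these slopes. In the treated group the 2 libraries with positive slopes had the 2 high Bbc3 values. With the slope as a covariate, a model added after the data had been seen, the coefficient of variation of Bbc3 was 0.0393 and its log2 fold change 0.15 (SE 0.0620, FDR = 0.0240, edgeR). The same model called 10899 of the 13818 genes tested, or 78.9%, among them all 10 genes in unchanged directions, and its coefficients of variation for the other 9 genes lay between 0.0302 and 0.0654 instead of 0.0356 and 0.0864. Since the slopes were centred within each group, the model takes out no GC-linked difference between the groups, and the part of GC content in the Bbc3 values beyond this fit was not tested. Bax has a GC content of 63.5%, also among the highest (percentile 99.3). In both groups the library with the lowest slope had the highest Bax value and the lowest Bbc3 value. The coefficient of variation of Bax was 0.0720 with the group alone and 0.0561 with the slope added. The part of GC content in the Bax values was not tested.

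**Figure D3:**
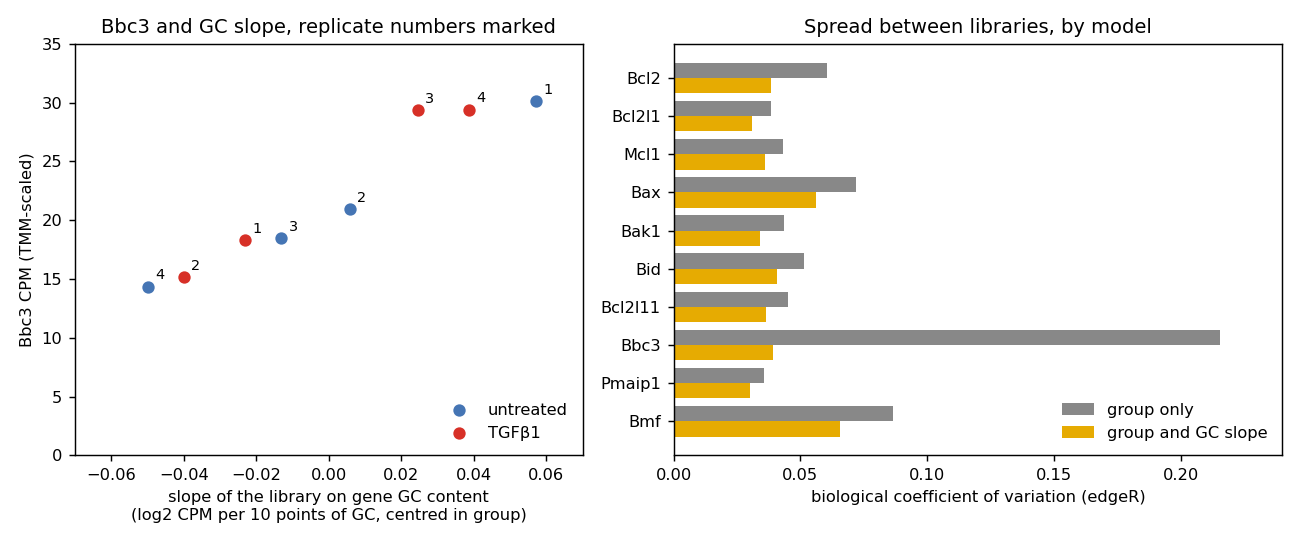
Left, Bbc3 CPM (TMM-normalized) against the slope of each library on gene GC content (log2 CPM per 10 points of GC, centred within group) for the 4 untreated and 4 treated libraries, with replicate numbers beside the points; right, bars of the biological coefficient of variation of each gene in the model with the group alone and with the GC slope added. Bbc3 is near 15 CPM at slopes near -0.05 and near 30 CPM at slopes above 0.02 in both groups, and its bar falls from 0.215 to 0.0393.

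To compare levels between genes, CPM were divided by the summed length of the annotated exons of each gene, which gives RPKM, a level per length. Bax had the highest RPKM of the family in both groups, 66.1 ± 8.66 without and 91.8 ± 2.50 with TGFβ1 (SD, n = 4). In untreated libraries the order went on with Mcl1 (40.0 ± 1.95 RPKM), Pmaip1 (36.8 ± 1.14), Bak1 (30.8 ± 1.64) and Bcl2l1 (23.0 ± 1.06). Bbc3 followed at 9.88 ± 3.15 RPKM, then Bid (5.55 ± 0.495), Bcl2l11 (4.71 ± 0.326), Bmf (2.74 ± 0.366) and Bcl2 (0.555 ± 0.0367). Of the neighbours in this order, Bid and Bcl2l11 overlapped in their ranges over the libraries (5.08 to 6.19 and 4.38 to 5.13 RPKM), and all others were apart. In treated libraries Pmaip1 (67.2 ± 1.22 RPKM) stood above Mcl1 (54.9 ± 2.10), and Bcl2l1 (37.0 ± 0.577) above Bak1 (26.2 ± 0.734). Bid at 11.6 ± 0.474 RPKM could not be told from Bbc3 at 10.9 ± 3.50, which ran from 7.13 to 13.9 RPKM. Bcl2l11 (5.73 ± 0.0942 RPKM), Bcl2 (1.15 ± 0.0714) and Bmf (0.618 ± 0.0164) closed the order. Bcl2 and Bmf exchanged the last place, and Bcl2 was at or near the bottom in both groups.

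Summed by role, the RPKM of the 3 guardians went from 63.5 ± 3.00 to 93.0 ± 2.59, of the 2 effectors from 96.9 ± 7.84 to 118 ± 3.00, and of the 5 BH3-only genes from 59.7 ± 1.91 to 96.0 ± 4.60 (SD, n = 4). All 3 sums were higher in every treated than in every untreated library. As shares of the total, the effectors went from 41.9 to 45.9% in untreated down to 37.4 to 39.5% in treated libraries, the BH3-only genes from 24.8 to 28.7% up to 29.9 to 32.3%, and the guardians from 28.1 to 29.3% up to 30.0 to 30.6%. The ratio of guardian to BH3-only RPKM was 1.06 ± 0.0814 without and 0.970 ± 0.0389 with TGFβ1 (SD, n = 4), and its ranges of 0.993 to 1.18 and 0.935 to 1.02 overlapped. These sums weigh RNA by length alone, and no test was run on them because the genes had been chosen with earlier results of these data known.

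Ratios of single genes moved to different extents. Bax over Bak1, the ratio of the effectors in RPKM, was 1.66 to 2.44 in untreated and 3.43 to 3.61 in treated libraries. Mcl1 over Pmaip1, a guardian over the BH3-only gene whose protein binds it, was 1.02 to 1.17 in untreated and 0.791 to 0.838 in treated libraries. Both pairs of ranges were apart, in opposite directions. Bax over Bcl2l1 was 2.44 to 3.08 in untreated and 2.40 to 2.58 in treated libraries, and these ranges overlapped. Bcl2l11 over Bmf went from 1.58 to 1.81 up to 9.10 to 9.68. Pmaip1 made up 61.8% ± 3.27 of the BH3-only RPKM without and 70.1% ± 2.39 with TGFβ1 (SD, n = 4), while Bmf went from 4.60% ± 0.723 to 0.645% ± 0.0438. Bcl2 was 0.875% ± 0.0521 of the guardian RPKM in untreated and 1.23% ± 0.0878 in treated libraries, so that its rise hardly moved the guardian sum.

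**Figure D4:**
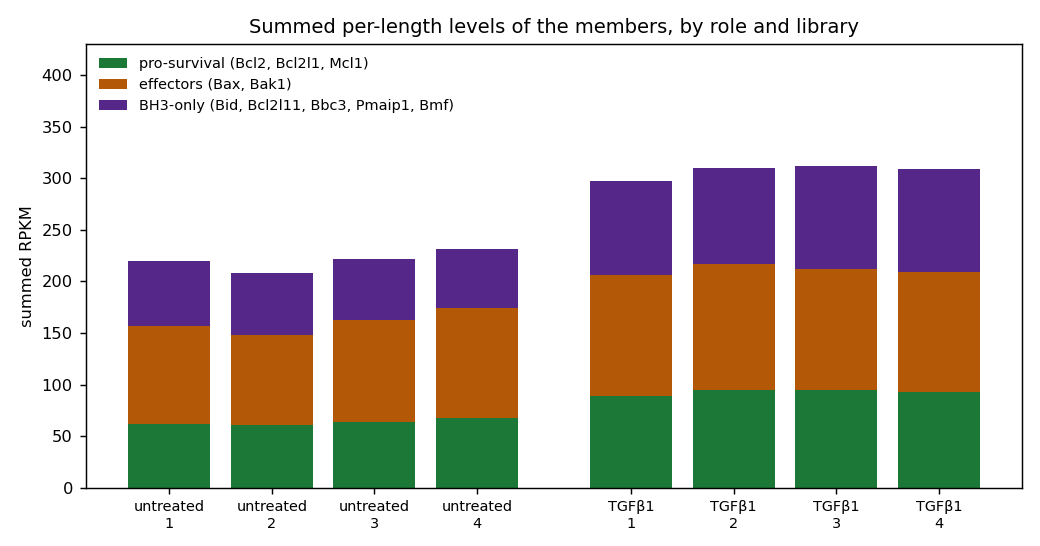
RPKM of the 10 BCL2 family genes stacked by role (guardians, marked pro-survival, at the bottom, then effectors and BH3-only genes) for each of the 4 untreated and 4 TGFβ1-treated libraries, on an axis that starts at 0. The stacks sum to 208 to 231 RPKM in untreated and 298 to 312 RPKM in treated libraries.

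Promoter sequences were looked at because BH3-only and effector genes are known targets of FOXO factors and of p53. RefSeq windows of 250 bases before annotated starts (GRCm38.p6) were used for 9 of the 10 genes, 16 windows in all. Pmaip1 was left out of this search, so the motif counts say nothing about its promoter. Both strands were searched for 6 motifs: the TATA box (TATAAA), the CCAAT box, the GC box (GGGCGG), the FOXO motif (GTAAACA), the SMAD palindrome (GTCTAGAC) and the p53 decamer, and none of these overlaps another in the matches shown here. GTAAACA occurred in 2 of the 9 genes, Bcl2l11 and Bbc3, and in 3.17% of all 32851 windows, and the p53 decamer occurred in Bax and Bmf and in 7.13% of all windows. The GC box was found in 6 genes (32.7% of all windows), the CCAAT box in 3 (33.8%), and the TATA box (12.4%) and the SMAD palindrome (0.167%) in 0 of the 9. The windows were rich in GC, with a median of 61.0% against 52.4% over all windows. A gene with several windows has more chances to hold a motif than 1 window, a match is a run of letters and not a bound site, and no match says only that the letters are not in the window. The 4 windows with a FOXO or p53 match are shown 5′ to 3′ on the strand of the gene, ending at the base before the start, with the match in capitals.
Bcl2l11, chr2:128125788-128126037, plus strand, GTAAACA at bases -227 to -221: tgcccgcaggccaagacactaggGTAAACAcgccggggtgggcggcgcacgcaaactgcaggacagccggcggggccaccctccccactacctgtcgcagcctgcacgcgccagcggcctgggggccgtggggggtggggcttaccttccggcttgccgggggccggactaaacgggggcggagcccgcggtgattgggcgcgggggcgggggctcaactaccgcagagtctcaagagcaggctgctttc
Bbc3, chr7:16310011-16310260, plus strand, before a start within the gene, GTAAACA read on the other strand at bases -167 to -161: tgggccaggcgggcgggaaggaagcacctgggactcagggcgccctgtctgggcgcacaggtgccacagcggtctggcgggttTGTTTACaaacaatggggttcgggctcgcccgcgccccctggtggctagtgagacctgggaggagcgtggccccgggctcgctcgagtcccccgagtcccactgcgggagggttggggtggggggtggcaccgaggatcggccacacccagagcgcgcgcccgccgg
Bax, chr7:45466899-45467148, minus strand, p53 decamer at bases -201 to -192: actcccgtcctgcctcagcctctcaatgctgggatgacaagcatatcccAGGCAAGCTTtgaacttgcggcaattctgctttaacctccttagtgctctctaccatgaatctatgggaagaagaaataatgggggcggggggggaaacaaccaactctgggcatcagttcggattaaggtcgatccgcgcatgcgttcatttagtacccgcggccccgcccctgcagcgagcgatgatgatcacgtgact
Bmf, chr2:118544588-118544837, minus strand, before a start within the gene, p53 decamer at bases -213 to -204: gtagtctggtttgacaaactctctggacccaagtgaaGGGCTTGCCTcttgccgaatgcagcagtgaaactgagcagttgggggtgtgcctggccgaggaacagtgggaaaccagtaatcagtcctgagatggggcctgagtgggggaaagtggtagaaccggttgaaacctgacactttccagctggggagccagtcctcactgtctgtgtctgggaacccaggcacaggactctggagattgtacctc
Of the genes with FOXO letters, Bcl2l11 rose (log2 fold change 0.29), and Bbc3 did not pass the test, at 0.14 with an interval that includes the value of Bcl2l11. Of those with p53 letters, Bax rose and Bmf fell.

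Of 15 other genes of the BCL2 family, 7 passed the filter on low counts, of which 1 was higher, 4 were lower and 2 did not pass the test, with a median log2 fold change of -0.25. The share called was 71.4%, beside 75.6% of all tested genes, 37.6% higher and 38.0% lower. The guardian Bcl2l2, which encodes BCL-w, was at 40.2, 43.1, 39.9 and 36.4 CPM without and at 49.2, 50.6, 48.2 and 44.3 CPM with TGFβ1 (log2 fold change 0.26, SE 0.0635, FDR = 5.91e-05, edgeR). Together with Bcl2, Bcl2l1 and Mcl1, all 4 guardian genes that could be tested were called higher, beside 37.6% of all tested genes. These genes were listed with earlier results of these data known, so their common direction was not tested. Of the read-length stretches of Bcl2l2, 11.5% are shared with Gm20521 on the same strand.

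Bnip3 and Bnip3l, which encode mitochondrial proteins that mark mitochondria for autophagy, both fell. Bnip3 was at 62.1, 61.1, 54.8 and 63.6 CPM in untreated and at 34.5, 27.0, 30.1 and 26.7 CPM in treated libraries (log2 fold change -1.03, SE 0.0786, FDR = 2.26e-38, edgeR). Bnip3l was at 180, 178, 183 and 209 CPM in untreated and at 141, 134, 147 and 144 CPM in treated libraries (log2 fold change -0.40, SE 0.0555, FDR = 1.21e-12, edgeR). After Bmf, Bnip3 fell the farthest among the tested genes of the wider family. Of the read-length stretches 16.9% of Bnip3l and 11.4% of Bnip3 occur in other genes on the same strand, and 32.1% of Bnip3 in genes on the opposite strand.

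Bcl2l13 fell by 0.25 on the log2 scale (FDR = 2.11e-09, edgeR), and Bcl2l12 by 0.31 (FDR = 0.0208, edgeR) with overlapping groups, at 8.87, 8.64, 7.99 and 6.24 CPM without and 5.95, 6.23, 7.53 and 5.98 CPM with TGFβ1. The call of Bcl2l12 was lost when untreated library 1 or 2 or treated library 1 or 4 was left out, with FDRs of 0.0634 to 0.0803. The BH3-only gene Bad, whose protein is inactivated by survival kinases, and the effector relative Bok did not pass the test, with log2 fold changes of -0.01 (95% interval -0.15 to 0.13, FDR = 0.927) and 0.08 (95% interval -0.15 to 0.31, FDR = 0.555, edgeR). Genes on the opposite strand share 20.4% of the read-length stretches of Bcl2l12 and 15.9% of those of Bad. The gene that overlaps Bad, Gpr137, was at a mean of 21.6 CPM without and 25.8 CPM with TGFβ1. The BH3-only genes Bik and Hrk had at most 8 counts in any library, and Bcl2a1a, Bcl2a1b and Bcl2a1d, which encode the guardian A1, had 0 counts in all 8 libraries, which allows up to 0.113 to 0.162 CPM per library. Bcl2l10, Bcl2l14 and Bcl2l15 had at most 4 counts, so no change of these 8 genes was detectable at this depth.

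The counts for each list below are to be read beside the 37.6% of all tested genes called higher and 38.0% called lower. Downstream of the BCL2 family, the genes of cytochrome c release and the apoptosome were mostly lower. Of 10 tested, 1 was higher, 7 were lower and 2 did not pass, with a median log2 fold change of -0.37. The gene that rose was Apaf1, the scaffold of the apoptosome and a known p53 target, at 130, 125, 138 and 156 CPM without and at 309, 327, 304 and 308 CPM with TGFβ1 (log2 fold change 1.19, SE 0.0606, FDR = 1.80e-82, edgeR). Casp9, the caspase that APAF1 activates, fell from 40.0 ± 0.604 to 26.3 ± 0.487 CPM (SD, n = 4; log2 fold change -0.61), and the outer membrane channel gene Vdac3 from 124 ± 2.49 to 79.2 ± 1.37 CPM (log2 fold change -0.64). Of the apoptosome genes, Apaf1 and Casp9 thus changed in opposite directions. Cycs, the gene of cytochrome c, which is part of the same complex, did not pass the test, at 25.4 ± 1.80 and 27.1 ± 1.70 CPM (SD, n = 4; FDR = 0.208, edgeR). Cycs was named after its values had been seen.

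Of 8 genes of other caspases and of the nuclease they release, 3 were higher, 3 lower and 2 did not pass (median log2 fold change 0.03). Dffb, the gene of the nuclease that cuts DNA between nucleosomes, rose from 5.88 ± 0.889 to 26.8 ± 1.13 CPM (SD, n = 4; log2 fold change 2.19, FDR = 9.52e-130, edgeR), while Dffa, the gene of its inhibitor, was at 12.6 ± 0.855 and 12.6 ± 0.955 CPM. Casp6, an executioner caspase, rose from 23.2 ± 1.81 to 29.2 ± 1.31 CPM, and Casp2 fell from 95.3 ± 1.20 to 50.4 ± 1.37 CPM. Casp12 fell by 0.59 on the log2 scale. Dffa was named after its values had been seen. All 5 genes of inhibitors of apoptosis proteins were called, 2 higher and 3 lower (median log2 fold change -0.23), beside 75.6% of all tested genes. Birc6 (0.57) and Birc3 (0.40) rose, and Birc2 (-0.61) and Birc5 (-1.85) were among those that fell. Birc5 encodes survivin, which is also a mitotic protein, and went from 86.9 ± 2.54 to 24.1 ± 1.82 CPM (SD, n = 4). All 10 proliferation markers fell, with a median log2 fold change of -1.75, Mki67 from 346 ± 14.8 to 96.9 ± 7.16 CPM (SD, n = 4), and the part of this fall in the other lists was not tested.

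In the death receptor arm, which reaches the mitochondria through Bid, 5 of 7 genes were higher, 1 was lower and 1 did not pass (median log2 fold change 0.62). Fas was at 53.8, 54.8, 56.2 and 59.1 CPM in untreated and at 136, 153, 141 and 138 CPM in treated libraries (log2 fold change 1.35, SE 0.0522, FDR = 5.69e-143, edgeR). Tnfrsf10b, the gene of the mouse TRAIL receptor, rose from 77.4 ± 2.65 to 193 ± 7.41 CPM (SD, n = 4; log2 fold change 1.32). Fadd, the adaptor below both receptors, fell from 16.1 ± 0.469 to 10.2 ± 0.569 CPM (SD, n = 4; log2 fold change -0.66). Fas, Tnfrsf10b and Bid were thus higher and Fadd was lower. Of the other genes in this list, Cflar (0.89) and Ripk1 (0.62) also rose on the log2 scale. Tnfrsf1a was called higher by only 0.10, with overlapping groups, and Tradd did not pass. Casp8, the gene of the caspase that cleaves BID, did not pass either (0.06, FDR = 0.299, edgeR). These genes were named after their values had been seen.

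Of 14 known p53 target genes, 12 were higher, 1 was lower and 1 did not pass, with a median log2 fold change of 0.97. Mdm2, which encodes the ligase that degrades p53, was at 289, 280, 307 and 347 CPM without and at 1371, 1516, 1418 and 1411 CPM with TGFβ1 (log2 fold change 2.22, SE 0.0621, FDR = 1.79e-256, edgeR). Perp, the gene of a membrane protein linked to p53-dependent death, rose from 28.8 ± 4.29 to 127 ± 9.28 CPM, and Gadd45a, a stress response gene, fell from 107 ± 15.0 to 42.5 ± 2.81 CPM (SD, n = 4; log2 fold changes 2.14 and -1.33). Beside these, some known p53 targets within the family and around it were at log2 fold changes of 0.87 (Pmaip1), 0.47 (Bax), 1.19 (Apaf1), 1.35 (Fas) and 0.14 (Bbc3, which did not pass). They are not a full set of such genes.

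The regulators of BH3-only gene transcription moved both ways: of 11 tested of 12 listed, 5 were higher, 4 lower and 2 did not pass (median log2 fold change 0.02). The forkhead factor genes Foxo3 and Foxo4 changed in opposite directions, Foxo3 from 107 ± 5.62 to 209 ± 3.01 CPM and Foxo4 from 44.0 ± 3.63 to 21.9 ± 2.57 CPM (SD, n = 4), a log2 fold change of 0.97 and a 2.01-fold fall. Runx1 rose from 77.2 ± 6.62 to 140 ± 7.64 CPM, and Atf4, of the integrated stress response, fell from 484 ± 18.4 to 246 ± 11.8 CPM (SD, n = 4; log2 fold changes 0.86 and -0.97). Of 8 genes listed for the turnover of MCL1 and BIM proteins, 4 were higher, 1 was lower and 3 did not pass (median log2 fold change 0.14). That list also holds dynein light chain genes, Dynll2, which rose (0.25), and Dynll1, which did not pass. Both were named after their values had been seen. Fbxw7, part of a ligase that marks MCL1 for degradation, rose from 23.4 ± 1.16 to 54.3 ± 2.81 CPM, and Usp9x, the deubiquitinase that stabilizes MCL1, from 155 ± 4.70 to 237 ± 11.9 CPM (SD, n = 4; log2 fold changes 1.22 and 0.61). Genes with opposite known effects on MCL1 protein therefore both rose, and Trib1 fell by 0.57 on the log2 scale. Protein was not analysed here.

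**Figure D5:**
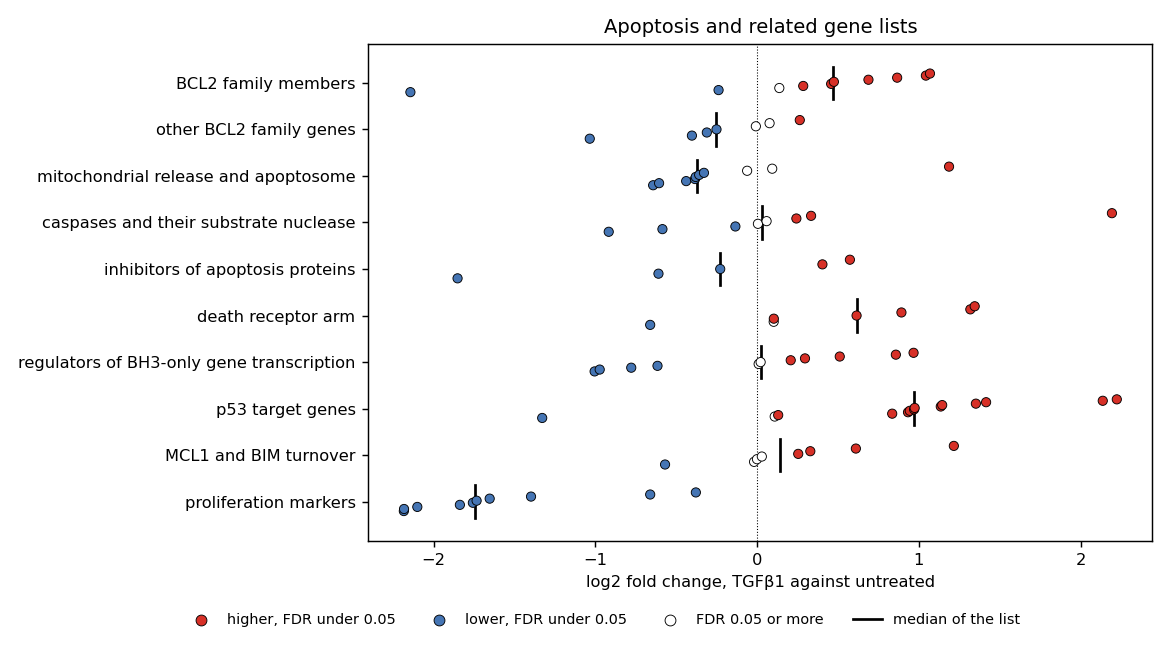
Log2 fold change, TGFβ1 against untreated, of every tested gene in the BCL2 family and 9 related lists, each list in a row with its median as a vertical line; filled points passed an FDR under 0.05 and open points did not. The medians run from -1.75 (proliferation markers) to 0.97 (p53 targets), with 0.47 for the 10 BCL2 family genes.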

How the data were processed

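RNA-seq of 8 SV-LEC libraries was analysed. Per the labels, stranded poly(A) libraries were read as single ends of 75 bases. The authors deposited raw counts per gene on GRCm38. The submitters' processing notes list bcl2fastq 2.20.0.422, STAR 2.7.3a and featureCounts 1.5.1, and the annotation release and strand setting are not given in the sources used here.

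Counts were filtered with filterByExpr, normalized by TMM and compared by glmFit and glmLRT in edgeR 4.0.16 (R 4.3.3) with all 8 libraries, no covariate, default prior count and Benjamini-Hochberg FDRs over 13818 genes. The study's methods name edgeR's likelihood ratio test and the FDR limit, not the filter or the scaling. Fold changes compare treated with untreated libraries. Permutation tests were 2-sided and exact, on log2(CPM + 0.1). Intervals are 95%, at 1.96 standard errors. The code was tested on simulated data. Alternatives were quasi-likelihood, DESeq2 1.42.0, other scalings, filters and thresholds, a replicate block and leaving out each library. Within-group chi-square per degree of freedom was 2.37 to 7.84, so no library counted as a duplicate.

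GENCODE M21 gave positions, exon lengths and the GC content of the longest transcript of each gene, and it matched 55144 of 55471 genes. Members and lists were chosen with earlier results of these data known. Genes named were the 10 members, the other tested family genes and, in each list, up to 2 genes with the largest and 2 with the smallest log2 fold change among called genes without overlap between groups, with Mki67 for the proliferation list and 6 markers of the cell type.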

Additional observations from a re-analysis of the deposited data

Results flagged for a closer look

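Among the 34 groups of 4 libraries formed by the tested genes of the BCL2 family, 3 held a library far from the rest of its group by Dixon's criterion, which chance alone meets in about 1 group in 20. Bax was at 151 CPM in treated library 2 and at 142 to 143 CPM in the other treated libraries. Bad was at 27.5 CPM in untreated library 4 and at 32.6 to 32.8 CPM in the others of its group. Bnip3l was at 209 CPM in untreated library 4 and at 178 to 183 CPM in the others.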

How the results depend on the processing

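Bcl2, Bcl2l1, Pmaip1, Bid and Bmf kept their direction and call under all 19 alternatives. Mcl1 (0.46), Bcl2l11 (0.29), Bax (0.47) and Bak1 (-0.24) kept theirs under all but glmTreat, which requires a change above 0.5. It left 4 of the 10 genes higher and 1 lower, and 2342 of all genes higher and 1807 lower. In the other lists, not counting the proliferation and cell type markers, it left 21 genes higher and 12 lower, where the main fit had 33 and 24. Over all genes the main fit had 5198 higher and 5251 lower. Bbc3 was not called under any alternative but the GC covariate chosen after seeing the data (log2 fold change 0.15, FDR = 0.0240, edgeR), and its log2 fold change lay between -0.00602 and 0.36 when single libraries were left out. It was -0.00602 without untreated library 4, -0.000815 without treated library 3 and -0.00243 without treated library 4. Other genes that changed sign were not called in any of these fits: Bok was at -0.0115 without treated library 4, and Bad at 0.000486 with DESeq2 size factors, at 0.00626 with genes filtered at 1 CPM in 4 libraries or more, and at 0.00365, 0.0101 and 0.0138 without untreated library 1, 2 or 3, the range over single libraries left out being -0.0653 to 0.0382, the highest without treated library 2. Replicate numbers did not pair the libraries (correlations of same-numbered libraries -0.310 to -0.0397), and the replicate block gave 10152 called genes instead of 10449, the same 9 of the 10 members among them. Without the filter on low counts 27709 genes were tested and 12140 called, and with total counts as the only scaling the median log2 fold change moved by -0.0673 and no member changed sign. Depth limits the 8 family genes below the filter, and technical replicates limit every error given.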
